A study of Mus musculus with 12 samples.

Results

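Glomerulus-enriched RNA from 6 BALB/cAJcl (AJcl) mouse libraries was compared, 3 collected at baseline and 3 on Day 5 after adriamycin (ADR), out of 12 libraries in the series. The members are the AJcl libraries of both time points, as labelled, and all 26264 genes of the count tables entered the analysis. AJcl is a substrain of the albino BALB/c inbred mouse, and every animal was a male of 8 weeks. The Day 5 mice had received 1 intravenous dose of 10 mg/kg ADR through the retro-orbital route. The labels and the study call the baseline mice untreated, while the treatment protocol says that controls were given saline, so it is not settled whether the groups also differ in the injection and the anaesthesia. Glomeruli were caught on magnetic beads perfused into the capillaries, freed with collagenase and collected with a magnet, and poly(A) RNA was sequenced. The other 6 libraries of the series came from the substrain BALB/cByJcl (ByJcl), with 3 at baseline and 3 on Day 5. They are used below to set the AJcl response beside that of a related substrain. They also entered the fit behind the AJcl calls, and so share in its gene filter, scaling and estimate of spread. The study counts the baseline libraries as mice and speaks of samples at Day 5. The p-values of that fit therefore measure the spread between libraries of both substrains, which at Day 5 may or may not be separate mice.

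The glomerulus filters blood through fenestrated endothelium, a basement membrane and the interdigitating foot processes of podocytes, with mesangial cells holding the capillary tuft together. ADR (doxorubicin) is an anthracycline that traps DNA topoisomerase II on DNA and produces double-strand breaks, and in susceptible mice it injures podocytes and causes albuminuria. DNA breaks stabilise the transcription factor p53, which induces genes that halt the cell cycle, limit p53 itself, repair DNA or promote apoptosis. The comparison asked which glomerular transcripts differed 5 days after the dose.

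The total count lay between 42198416 and 47880096 per AJcl library, and between 17574 and 19511 genes had at least 1 count. At this depth 3 counts correspond to between 0.0627 and 0.0711 CPM (a count scaled to a common library total), a floor that covers counting error only, and the number of libraries limits precision more than depth does. Baseline and Day 5 counts were deposited in separate tables, so ADR and any difference in how the tables were made cannot be told apart. Between 77.08% and 82.85% of the counts from 1 to 49 were even numbers in the AJcl libraries, and the counting setting was not given in the sources used here. Levels below are CPM scaled by edgeR's trimmed mean of M-values (TMM), except where they are said to be unscaled.

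The Day 5 library A-ADR1 stood apart in its tubular content, and the paper leaves it out for low glomerular purity, so results are given with and without it. Podocyte genes were present in every library, Nphs1 (nephrin of the slit diaphragm) at 1096, 1650 and 1253 CPM at baseline and at 773, 1331 and 899 CPM in A-ADR1, A-ADR2 and A-ADR3. The summed level of 28 proximal tubule markers was 8551, 4237 and 12937 CPM at baseline and 17661, 7314 and 5367 CPM on Day 5. Thus A-ADR1 lay above every baseline library in tubular RNA, whereas A-ADR2 and A-ADR3 lay within the baseline range. The ratio of summed podocyte markers to 6 tubular markers was 22.6, 50.9 and 11.6 at baseline, and 6.96, 19.7 and 21.5 on Day 5. The mean log2 ratio was 0.73 lower on Day 5, a difference of -0.73 that an exact two-sided permutation test did not separate (p = 0.4, where 3 against 3 cannot go below 0.1). Leaving out A-ADR1 brought the difference to -0.21, and leaving out A-Ctrl2 brought it to -0.18. Since these are bulk samples, fewer cells of a type and less RNA per cell cannot be told apart in any result below.

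**Figure D1:**
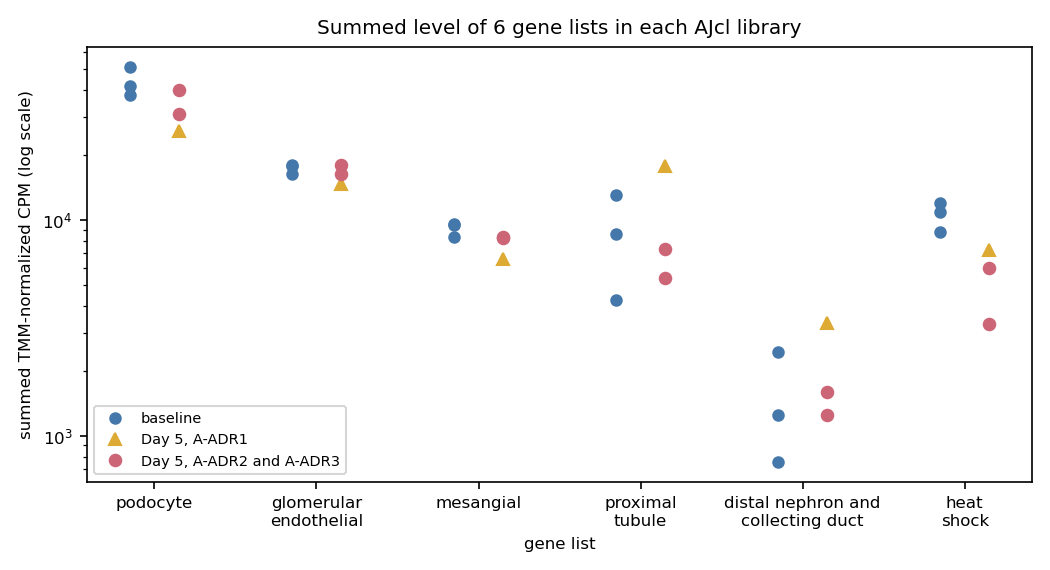
Summed TMM-normalized CPM (vertical axis, log scale) of 6 gene lists (horizontal axis) in each of the 6 AJcl libraries, with baseline in blue, A-ADR1 as a yellow triangle and the other Day 5 libraries in red. A-ADR1 is the highest library for both tubular lists and the lowest for podocyte genes, and all Day 5 libraries lie below all baseline libraries for heat shock genes.

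Few genes differed in AJcl glomeruli at Day 5, most of them upward, and Cdkn1a, Ccng1, Phlda3 and Eda2r, which p53 is known to induce, were among them. edgeR's quasi-likelihood test, fitted over the 12 libraries, called 54 of 16612 tested genes at a Benjamini-Hochberg adjusted p below 0.05, which is 0.325% of those tested. Of these, 47 were higher on Day 5 (0.283%) and 7 were lower (0.0421%), with 44 of the higher and 5 of the lower calls beyond 2-fold. The 3 Day 5 libraries of every called gene lay outside the range of its 3 baseline libraries, whereas over all tested genes 6.60% lay wholly above and 6.66% wholly below. The median log2 fold change (log2FC) of all tested genes was 0.01, and 1511 genes fell under 0.05 before adjustment. On the same genes the Wald test of DESeq2 called 326, all 54 among them. Below, a gene is named as called where edgeR called it, unless DESeq2 is named. Some genes given as not called were therefore DESeq2 calls.

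Without A-ADR1 the same test called 53 of 17002 genes (0.312%), 52 higher (0.306%) and 1 lower (0.00588%), and 44 genes were called in both fits. Of the 47 higher calls 43 remained, and of the 7 lower calls 1 remained. Within the higher calls the Day 5 libraries differed in size of response, with A-ADR3 the highest of the 3 in 38 of 47 genes.

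**Figure D2:**
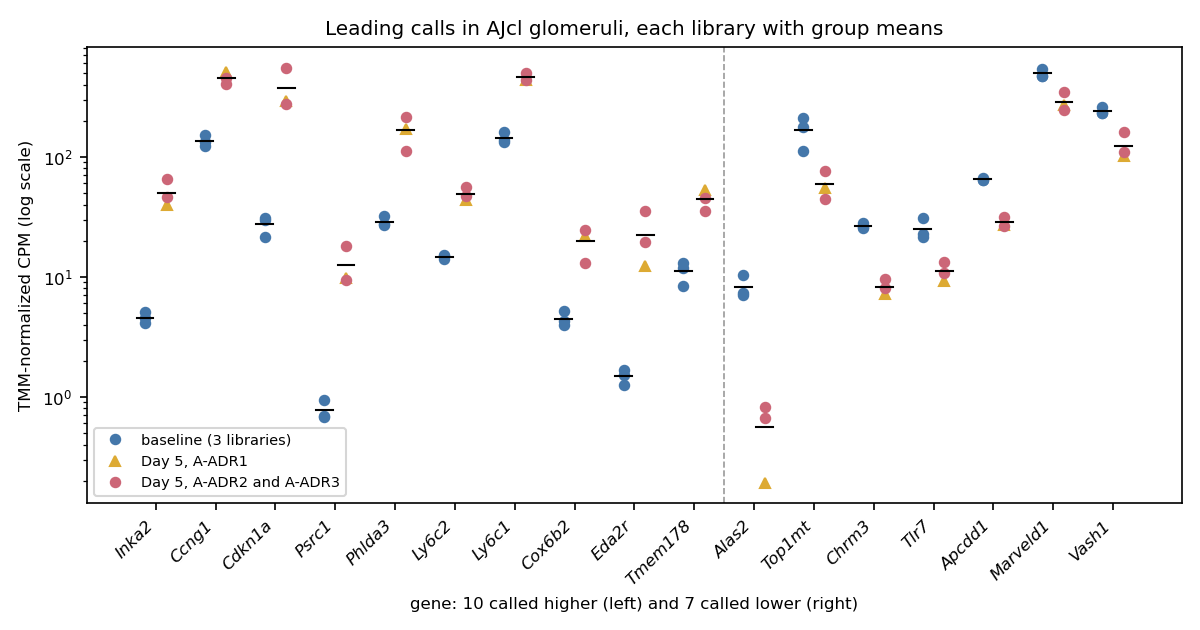
TMM-normalized CPM (vertical axis, log scale) of the 10 leading genes called higher and the 7 genes called lower (horizontal axis) in each AJcl library, with bars at group means. Baseline libraries are blue, A-ADR1 is the yellow triangle and A-ADR2 and A-ADR3 are red. For each gene shown, no Day 5 library falls within the baseline range.

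Of 21 tested genes through which p53 stops the cell cycle and restrains itself, 6 were called higher (0.283% of all genes were). A positive log2FC was found for 19, and 15 lay above baseline in all 3 Day 5 libraries (6.60% of all genes did). Cdkn1a, which encodes the cyclin-dependent kinase inhibitor p21 (chromosome 17 from 29309936 to 29319701, GRCm39), was at 21.3, 30.0 and 30.8 CPM in the baseline libraries and at 293, 277 and 552 CPM in A-ADR1, A-ADR2 and A-ADR3. The 3 Day 5 libraries were all far above baseline, with A-ADR3 the highest, and the log2FC was 3.77 (SE 0.30, adjusted p = 1.91e-04, edgeR). Ccng1, which encodes cyclin G1, a feedback regulator of p53 (chromosome 11 from 40639377 to 40646148), was at 151, 123 and 132 CPM at baseline and at 512, 405 and 453 CPM on Day 5. Its Day 5 values were close together and its log2FC was 1.76 (SE 0.13, adjusted p = 1.77e-04, edgeR). Gtse1, a microtubule-binding protein that exports p53 from the nucleus, went from 0.647, 1.22 and 0.919 CPM to 5.83, 5.55 and 9.60 CPM, a log2FC of 2.91 (adjusted p = 0.00248, edgeR). Zfp365, a zinc finger gene linked to genome stability, was at 2.13, 1.90 and 1.24 CPM at baseline and at 9.59, 6.94 and 18.7 CPM on Day 5, a log2FC of 2.74 (adjusted p = 0.00664, edgeR). Zmat3, an RNA-binding p53 target, had a smaller log2FC of 1.01 (adjusted p = 0.0247, edgeR).

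Trp53cor1, the long non-coding RNA known as lincRNA-p21, was at 0 CPM in A-Ctrl1 and A-Ctrl2 and at 0.107 CPM in A-Ctrl3. On Day 5 it was at 0.879, 1.33 and 1.87 CPM, each above the floor, with a fitted log2FC of 5.13 (SE 0.82, adjusted p = 0.0247, edgeR) whose size depends on the prior count. It is annotated on chromosome 17 (29233594 to 29298284) beside Cdkn1a, which starts at 29309936, so the 2 annotated spans do not overlap. Because the strand setting of the counting was not given, reads of any transcript that overlaps it on the other strand may be shared.

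The sequences of 5 of these p53 targets show where the letters recognised by the factor stand near their starts. The p53 response element, a pair of adjacent half-sites of 10 bases each that reads alike on both strands, was searched in the 250 bases before each RefSeq start of the GRCm38.p6 promoter table. The C and the G in the core of each half-site had to be intact, the bases between them were free to differ, and at most 3 of 20 bases could differ from the consensus, a rule chosen after the calls were known. Among the 34 higher calls with a RefSeq promoter, 6 held such a match (17.6%), against 1.53% of the 12994 tested genes with a promoter. The matches belonged to Cdkn1a, Ccng1, Zfp365, Aen, Bbc3 and Ifi202b, and the first 5 are printed 5′ to 3′ along the strand of the gene, with the 20-base window in capitals, its mismatched bases included, and up to 40 bases on either side. The Cdkn1a stretch is chr17:29090888-29090978 on the plus strand and precedes the more upstream of its RefSeq starts. Ccng1 is chr11:40755422-40755521 on the minus strand, Zfp365 is chr10:67912666-67912765 on the minus strand, Aen is chr7:78895897-78895996 on the plus strand and Bbc3 is chr7:16309446-16309545 on the plus strand.
Cdkn1a: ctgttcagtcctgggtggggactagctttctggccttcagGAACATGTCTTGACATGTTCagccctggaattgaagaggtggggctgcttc
Ccng1: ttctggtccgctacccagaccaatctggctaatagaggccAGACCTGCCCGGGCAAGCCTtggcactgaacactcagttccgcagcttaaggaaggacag
Zfp365: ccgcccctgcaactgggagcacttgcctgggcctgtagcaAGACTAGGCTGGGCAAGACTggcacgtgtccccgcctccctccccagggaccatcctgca
Aen: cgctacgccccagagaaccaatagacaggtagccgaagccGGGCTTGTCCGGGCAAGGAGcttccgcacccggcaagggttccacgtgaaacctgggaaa
Bbc3: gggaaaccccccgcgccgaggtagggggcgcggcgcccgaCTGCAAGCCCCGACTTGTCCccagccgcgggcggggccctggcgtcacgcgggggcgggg
The Cdkn1a and Ccng1 stretches differed from the consensus at 1 of 20 bases, that of Zfp365 at 2, and those of Aen and Bbc3 at 3. These are matches of letters in one window, and p53 binding was not measured.

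Of 20 tested genes through which p53 promotes apoptosis, 4 were called higher (0.283% of all genes were). All 20 had a positive log2FC, and 10 lay above baseline in all 3 Day 5 libraries (6.60% of all genes did). Eda2r, a receptor of the tumour necrosis factor family (chromosome X from 96320270 to 96420847), was at 1.25, 1.52 and 1.67 CPM at baseline and at 12.3, 19.4 and 35.5 CPM on Day 5. All 3 Day 5 libraries were well above baseline, A-ADR3 the most, and the log2FC was 3.92 (SE 0.43, adjusted p = 0.00189, edgeR). Phlda3, which holds back the survival kinase AKT (chromosome 1 from 135693809 to 135697686), was at 32.1, 27.6 and 27.0 CPM at baseline. It reached 172, 111 and 216 CPM on Day 5, a log2FC of 2.52 (SE 0.22, adjusted p = 3.23e-04, edgeR). Bbc3, the pro-apoptotic protein PUMA that binds BCL2, was at 5.89, 7.11 and 7.31 CPM and then at 18.9, 16.5 and 28.0 CPM, a log2FC of 1.64 (adjusted p = 0.00985, edgeR). Aen, an apoptosis-enhancing nuclease, was at 15.6, 18.5 and 20.4 CPM at baseline and at 44.6, 46.5 and 72.4 CPM on Day 5, a log2FC of 1.59 (adjusted p = 0.00985, edgeR).

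Across the 3 lists of p53 targets, 55 genes were tested, 10 of them were called higher (18.2%, against 0.283% of all tested genes) and 0 lower. Their median log2FC was 0.46, 48 of 55 were positive, and 29 lay above baseline in all 3 Day 5 libraries (6.60% of all genes did). The arrest and feedback list had 6 of 21 genes called and a median log2FC of 1.01, the apoptosis list 4 of 20 and a median of 0.45, and the DNA repair list 0 of 14 and a median of 0.14. Within the repair list 9 of 14 genes were positive and 4 lay above baseline in all Day 5 libraries. Its extremes were Gadd45b, a stress-induced growth arrest gene, at a log2FC of 1.23 and Rrm2b, a ribonucleotide reductase subunit, at -0.13 (edgeR adjusted p of 0.120 and 0.851), and no difference between the 3 lists was tested. Bax, the pore-forming apoptosis effector, was at 58.6, 47.4 and 50.8 CPM at baseline and at 101, 67.3 and 112 CPM on Day 5, outside the baseline range but not called (adjusted p = 0.126, edgeR). Gdf15, a stress cytokine, had a log2FC of 2.18 that missed the threshold in edgeR (adjusted p = 0.0663) and passed it in the Wald test of DESeq2 (adjusted p = 3.71e-05). Without A-ADR1, 11 genes of these lists were called higher, with Trp53inp1, a p53-induced nuclear protein, as the addition (log2FC 1.19, adjusted p = 0.0298, edgeR). The list of senescence genes had 1 of 18 called higher (0.283% of all genes were), the inhibitor Cdkn1c, with a median of 0.29. The cell cycle list had 0 of 35 called, with a median of -0.21.

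**Figure D3:**
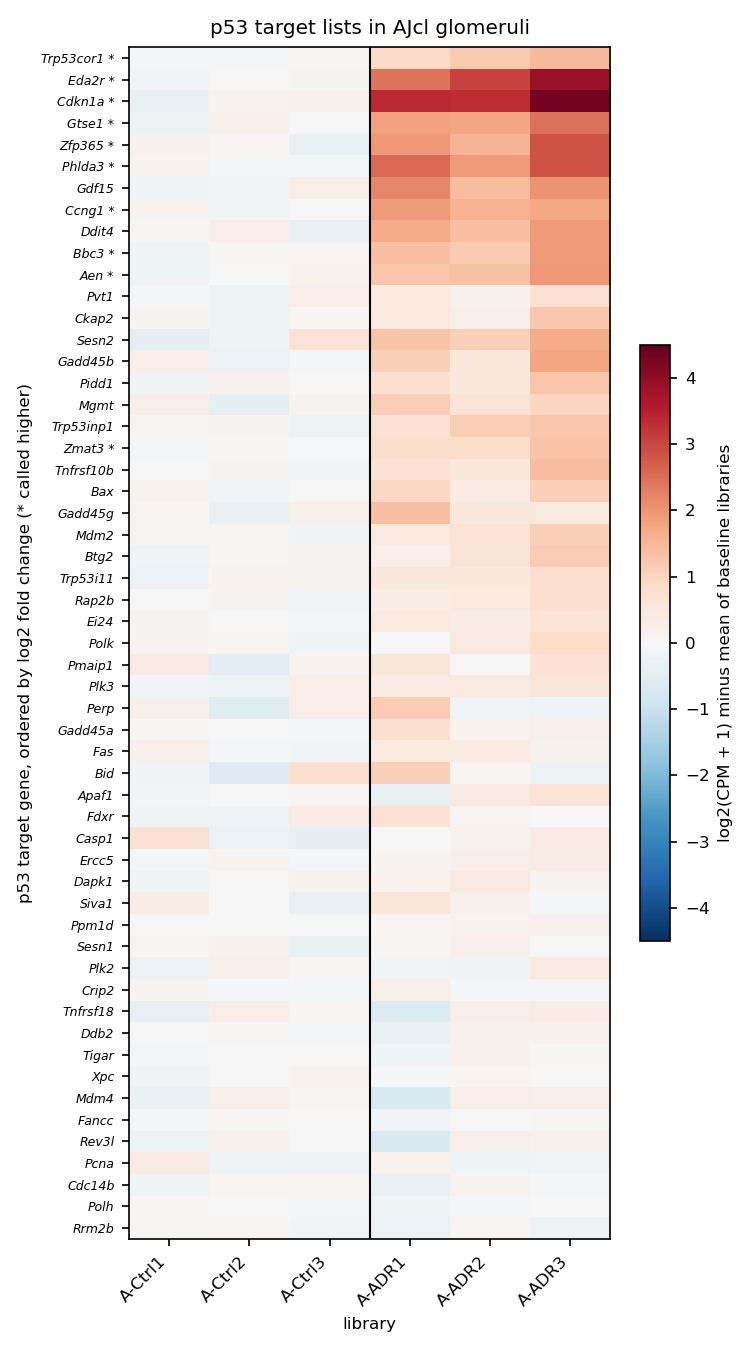
Difference in log2(CPM + 1) from the mean of the 3 baseline libraries (colour) for the 55 tested p53 targets (rows, ordered by log2FC, asterisks marking those called higher) in the 6 AJcl libraries (columns). The 10 called genes are red in all 3 Day 5 libraries, and most genes of the lower part are near 0.

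Beyond these lists, the gene with the smallest adjusted p was Inka2, an inhibitor of the cytoskeletal kinase PAK4 (chromosome 3 from 105611915 to 105628158). It was at 4.14, 5.06 and 4.53 CPM at baseline and at 39.4, 46.0 and 65.7 CPM on Day 5, with log2FC 3.46 (SE 0.22, adjusted p = 4.79e-05, edgeR). Psrc1, a microtubule protein of the mitotic spindle (chromosome 3 from 108288765 to 108295547), went from 0.693, 0.675 and 0.940 CPM to 9.82, 9.48 and 18.2 CPM, with log2FC 4.02 (SE 0.35, adjusted p = 3.23e-04, edgeR). For both genes all Day 5 libraries were several times any baseline library.

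Cox6b2, an isoform of a cytochrome c oxidase subunit best known from testis (chromosome 7 from 4754789 to 4756093), had 5.20, 4.30 and 3.95 CPM at baseline and 21.9, 13.1 and 24.5 CPM on Day 5 (log2FC 2.14, SE 0.23, adjusted p = 0.00164, edgeR). Tmem178, an endoplasmic reticulum protein that limits calcium entry (chromosome 17 from 81251950 to 81316567), had 11.9, 8.40 and 13.1 CPM and then 53, 35.3 and 45.4 CPM (log2FC 2.00, SE 0.22, adjusted p = 0.00189, edgeR). Lpar1, a lysophosphatidic acid receptor, rose from between 0.338 and 0.470 CPM to between 3.52 and 3.83 CPM (log2FC 3.17, adjusted p = 0.00210, edgeR), and its Day 5 libraries were nearly equal. Maff, a small leucine zipper transcription factor, had a log2FC of 2.59 (adjusted p = 0.0116, edgeR). Tnfrsf12a, the receptor of the cytokine TWEAK, was at 16.2, 13.2 and 17.5 CPM at baseline and at 59.3, 34.9 and 100.0 CPM on Day 5 (log2FC 2.05, adjusted p = 0.0342, edgeR). Arhgap20, Clca3a1, Ptprv and Serpina3h, with log2FC of 3.58, 3.02, 3.15 and 2.21, were unequal within Day 5, with A-ADR3 the highest each time. Serpina3h may share reads with its close copy Serpina3i.

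Further genes called higher included Gpr182, an endothelial receptor, with a log2FC of 0.88 (adjusted p = 0.0239, edgeR). Nell2, a secreted glycoprotein best known from neurons, was at 32.3, 34.3 and 32.4 CPM at baseline and at 60.7, 95.0 and 87.9 CPM on Day 5 (log2FC 1.30, SE 0.19, adjusted p = 0.0157, edgeR). Slc19a2, a thiamine transporter, was at 13.4, 10.1 and 10.4 CPM and then at 25.7, 27.8 and 38.0 CPM (log2FC 1.44, adjusted p = 0.0368, edgeR). Its Day 5 libraries did not reach down to baseline, nor did those of Ddias, a suppressor of apoptosis after DNA damage, which had a log2FC of 2.57 (adjusted p = 0.0247, edgeR). Mybl1, a transcription factor of the MYB family, the stress kinases Map3k6 and Mapkapk3, Dlk2 and Fam107a had log2FC of 1.38, 1.18, 1.21, 1.94 and 1.62. Of these Mapkapk3 and Fam107a were not called without A-ADR1, where their log2FC were 1.27 and 1.67 (adjusted p = 0.0594 and 0.0641, edgeR). Lrrtm2 was at 0.277, 0.0844 and 0.257 CPM at baseline, low but above the floor, and its log2FC of 2.85 (adjusted p = 0.0247, edgeR) may depend in size on the prior count. The collagen chain Col10a1 and the gene models 1700007K13Rik and 5830418P13Rik were at 0.171 CPM or less in every baseline library. At so few counts the size of their fitted log2FC depends on the prior count and is not given.

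Ly6c1 and Ly6c2, surface proteins of endothelium and monocytes, rose by like amounts. Ly6c2 was at 15.2, 14.9 and 13.96 CPM at baseline and at 43.5, 47.1 and 55.9 CPM on Day 5 (log2FC 1.73, SE 0.16, adjusted p = 4.61e-04, edgeR). Ly6c1 was at 161, 139 and 132 CPM and then at 435, 441 and 500.1 CPM (log2FC 1.67, SE 0.17, adjusted p = 8.61e-04, edgeR). Both lie on chromosome 15, are near-identical copies and may share reads, so how much each rose is uncertain. Of the 24 tested macrophage and myeloid markers, Ly6c2 was the only call, the median log2FC was -0.08, and the macrophage marker Adgre1 was between 0.172 and 1.16 CPM over the 6 libraries. The summed level of the myeloid list was between 200.6 and 232.8 CPM at baseline and between 239.7 and 354.8 CPM on Day 5. Without Ly6c2 the sum was between 186.6 and 217.6 CPM at baseline and at 197.3, 192.6 and 298.9 CPM on Day 5, so A-ADR3 alone lay above baseline. Of the 15 tested lymphocyte markers 0 were called, and their summed level stayed between 5.22 and 10.2 CPM. None of the 24 endothelial markers was called, with a median log2FC of -0.03.

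Interferon-stimulated genes had mostly positive log2FC, although few passed the threshold singly. Of 29 tested, 2 were called higher (0.283% of all genes were), 27 had a positive log2FC and 19 lay above baseline in all Day 5 libraries (6.60% of all genes did), with a median of 0.83. Cxcl10, a chemokine that attracts T cells, was at 0.832, 1.22 and 0.855 CPM at baseline and at 10.3, 4.13 and 26.5 CPM on Day 5. Its Day 5 libraries differed widely among themselves, all above baseline, and the log2FC was 3.81 (SE 0.60, adjusted p = 0.0239, edgeR). Cxcl10 did not stay called in every fit with a single library left out. Ifit3, an antiviral tetratricopeptide protein, went from 16.5, 13.9 and 13.8 CPM to 28.9, 27.7 and 44.6 CPM (log2FC 1.19, adjusted p = 0.0368, edgeR), and its close copy Ifit3b, with a log2FC of 0.62, may share its reads. A-ADR3 stood apart, with a summed level of the list of 1346 CPM, where A-ADR1 was at 770.0 CPM, A-ADR2 at 816.9 CPM and baseline between 526.5 and 610.6 CPM. Ifit3 was not called without A-ADR3 (log2FC 0.94, adjusted p = 0.109, edgeR), nor without any 1 of the baseline libraries (adjusted p between 0.101 and 0.201). Irf7, which amplifies interferon transcription, was at 16.7, 19.7 and 13.98 CPM and then at 34.2, 34.3 and 67.3 CPM, above baseline but not called (adjusted p = 0.0805, edgeR). Ifi202b, a DNA sensor of the same kind outside the list, was called (log2FC 1.54, adjusted p = 0.0392, edgeR). Mx1 was at 0.324, 0.127 and 0.171 CPM at baseline and at 0.0429, 0.0884 and 0.0403 CPM on Day 5, near the floor and not called (adjusted p = 0.369, edgeR).

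None of 19 antigen presentation genes was called, 14 had a positive log2FC, and the median was 0.53. In all Day 5 libraries 6 lay above baseline and 4 below (6.60% and 6.66% of all genes did). Tap1, the peptide transporter of class I, was at 14.2, 19.2 and 19.2 CPM at baseline and at 32.0, 29.8 and 86.4 CPM on Day 5, and H2-K1 had a log2FC of 0.93 (adjusted p = 0.275, edgeR). The class II genes H2-Aa, H2-Ab1, H2-Eb1 and Cd74 lay below baseline in all Day 5 libraries, with log2FC of -1.02, -0.50, -0.95 and -0.58, while H2-DMa, also of class II, had 0.72. The class I gene H2-Q6, outside the list, had a log2FC of -1.03 (adjusted p = 0.266, edgeR), and no difference between the classes was tested. Reads may be shared among the H2 genes. In the chemokine and acute phase list, 1 of 22 was called higher (0.283% of all genes were), 17 had a positive log2FC, and the median was 0.59. In all Day 5 libraries 7 of them lay above baseline and 1 below. The call was Lrg1, a secreted glycoprotein that modulates transforming growth factor signalling, from between 1.88 and 2.87 CPM to 9.74, 10.2 and 18.8 CPM (log2FC 2.38, adjusted p = 0.0425, edgeR). Of the 29 genes of this list 22 passed the filter on low counts, and 5 had no count in any AJcl library.

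Genes that respond to glucocorticoids had positive log2FC throughout. All 16 tested members had a positive log2FC, 11 lay above baseline in all Day 5 libraries (6.60% of all genes did), 2 were called higher (0.283% of all genes were), and the median was 1.00. Angptl4, an inhibitor of lipoprotein lipase (chromosome 17 from 33992724 to 34000804), was at 15.99, 18.2 and 18.7 CPM at baseline and at 105, 102 and 98.8 CPM on Day 5. Its Day 5 values were close together, and the log2FC was 2.53 (SE 0.35, adjusted p = 0.0123, edgeR). Cebpd, a transcription factor of the acute phase response, had a log2FC of 1.00 (adjusted p = 0.0395, edgeR) and was not called without A-ADR1 (log2FC 1.04, adjusted p = 0.0610, edgeR). Pdk4, which spares glucose by inhibiting pyruvate dehydrogenase, was at 6.68, 10.95 and 8.66 CPM and then at 44.4, 100.0 and 68.9 CPM, not called (adjusted p = 0.106, edgeR).

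Of the 7 genes called lower, 6 were not called without A-ADR1. Alas2, the first enzyme of haem synthesis in erythroid cells (chromosome X from 149330371 to 149353634), was at 10.3, 7.28 and 7.05 CPM at baseline and at 0.193, 0.818 and 0.664 CPM on Day 5. Every Day 5 library was well below every baseline library, the log2FC was -3.87 (SE 0.56, adjusted p = 0.0157, edgeR), and it was the only lower call to remain without A-ADR1 (adjusted p = 0.0272, edgeR). Of the 6 tested erythroid markers Alas2 was the only call, the median log2FC was -0.30 and 2 were positive. For those under the filter, levels are CPM unscaled by TMM. Among them Epb42, a red cell membrane protein, was between 0.0419 and 0.142 CPM at baseline and between 0.0421 and 0.130 CPM on Day 5. Ahsp, the chaperone of alpha globin, had between 0.125 and 0.474 unscaled CPM in the baseline libraries and 0 in the Day 5 libraries, where 3 counts would be at most 0.0669 CPM. The 4 globin genes of the list had no count in any AJcl library, and near-identical copies among them could have lost reads in counting. The iron and haem genes Slc25a37 and Fech, which other cells also use, had log2FC of -0.52 and 0.13 and were not called.

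Top1mt, the mitochondrial type I topoisomerase (chromosome 15 from 75527333 to 75550660), was at 112, 209 and 177 CPM at baseline and at 55.2, 76.7 and 44.9 CPM on Day 5, a log2FC of -1.49 (SE 0.24, adjusted p = 0.0239, edgeR). Chrm3, a muscarinic acetylcholine receptor (chromosome 13 from 9925522 to 10410883), was at 28.3, 26.2 and 25.4 CPM and then at 7.14, 8.13 and 9.60 CPM, a log2FC of -1.68 (SE 0.29, adjusted p = 0.0368, edgeR). Tlr7, an endosomal sensor of single-stranded RNA, had a log2FC of -1.17, Apcdd1, an inhibitor of Wnt signalling, one of -1.19, Vash1, a tubulin-modifying inhibitor of angiogenesis, one of -0.96, and Marveld1 one of -0.80. Without A-ADR1 these 6 genes kept log2FC between -1.57 and -0.74, with adjusted p between 0.061 and 0.102 in edgeR's test over 11 libraries.

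Podocyte genes had mostly negative log2FC, but none was called lower by edgeR. The Wald test of DESeq2 with the 12 libraries called some lower, among them Sema3g and Vegfa (adjusted p = 2.36e-04 and 0.00671). Of 46 tested, 45 had a negative log2FC, 11 lay below baseline in all Day 5 libraries (6.66% of all genes did), and the median was -0.41. Sema3g, a secreted semaphorin of podocytes, was at 2824, 4002 and 2620 CPM at baseline and at 933, 1769 and 871 CPM on Day 5, a log2FC of -1.40 (adjusted p = 0.0789, edgeR). Wt1, the podocyte transcription factor, was at 402, 535 and 418 CPM and then at 308, 493 and 277 CPM, so that A-ADR2 overlapped baseline (log2FC -0.33, adjusted p = 0.746, edgeR). Nphs1, given above, had a log2FC of -0.41 (adjusted p = 0.738, edgeR), and Podxl, Synpo, Tcf21 and Ptpro had -0.48, -0.79, -0.41 and -0.52. Without A-ADR1 Nphs1, Podxl, Synpo and Ptpro had -0.25, -0.31, -0.61 and -0.33, and Wt1 had -0.22, while Tcf21 went the other way to -0.46. Vegfa, through which podocytes maintain the endothelium, had a log2FC of -0.86 (adjusted p = 0.146, edgeR), and Magi2, a scaffold of the slit diaphragm, one of -1.34 (adjusted p = 0.164, edgeR). The single podocyte call of edgeR went upward, Cdkn1c, the inhibitor p57 of differentiated podocytes, from 1094, 1125 and 1025 CPM to 2276, 1790 and 2362 CPM (log2FC 0.99, SE 0.18, adjusted p = 0.0469, edgeR).

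A-ADR1 was the lowest of the Day 5 libraries for the summed podocyte list, at 25819 CPM, while A-ADR2 was at 39654 CPM and A-ADR3 at 30696 CPM, and baseline lay between 37590 and 51042. Without A-ADR1 the podocyte median was -0.28 and 14 of 46 genes were positive, and Cdkn1c was not called (log2FC 0.95, adjusted p = 0.0913, edgeR). Kirrel2, a nephrin-related protein of the slit diaphragm outside the list, was then called higher (log2FC 0.99, adjusted p = 0.0488, edgeR). In A-ADR2 several podocyte genes stood within the baseline range.

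The lists of matrix, integrin and actin genes held no edgeR call. The Wald test of DESeq2 with the 12 libraries called some of them. Among these were Col1a2 and Itga6, lower (adjusted p = 1.73e-04 and 6.92e-04), and Vcan, higher (adjusted p = 0.0242). Of 24 basement membrane genes 0 were called, with a median of -0.09. Col4a1 and Col4a2, the collagen IV chains shared by most basement membranes, stood at log2FC of 0.16 and 0.21 (edgeR adjusted p of 0.925 and 0.911). Interstitial matrix genes had 0 of 29 called, with 15 positive and a median of 0.06. Vcan, the proteoglycan versican, was above baseline in all Day 5 libraries at 0.558, 0.575 and 2.30 CPM (log2FC 2.13, adjusted p = 0.209, edgeR). Col1a2 was at 373, 539 and 405 CPM at baseline and at 154, 231 and 163 CPM on Day 5 (log2FC -1.26, adjusted p = 0.0619, edgeR). Loxl1, a collagen and elastin crosslinking enzyme, had a log2FC of 0.13 (adjusted p = 0.899, edgeR). Without A-ADR1 Col4a1, Col4a2 and Loxl1 had log2FC of 0.37, 0.44 and 0.25, not called, and the basement membrane median was 0.10. The integrin list had 0 of 31 called, with Itga6, a laminin receptor subunit, the nearest at a log2FC of -0.69 (adjusted p = 0.0625, edgeR). Tpm1 to Tpm4, the tropomyosins of the actin filament, had log2FC of 0.32, -0.47, 0.14 and -0.16, none called. Without A-ADR1 Tpm2 had -0.72 (adjusted p = 0.0511, edgeR) and Tpm3 had 0.28.

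Heat shock genes had mostly negative log2FC, with no edgeR call. The Wald test of DESeq2 with the 12 libraries called Hspa1b lower (adjusted p = 0.0428). Of 15 tested, 14 had a negative log2FC, 10 lay below baseline in all Day 5 libraries (6.66% of all genes did), and the median was -0.76. Hspa1b, the inducible HSP70 chaperone, was at 1170, 1021 and 244 CPM at baseline and at 44.1, 43.3 and 14.9 CPM on Day 5, a log2FC of -4.57 (adjusted p = 0.296, edgeR). Hspa1a, its near-identical copy with which reads may be shared, was at 889, 741 and 96.3 CPM and then at 27.5, 26.9 and 22.4 CPM. Hence baseline libraries differed among themselves, A-Ctrl3 being the lowest, and still lay above every Day 5 library. Immediate early genes had the opposite sign, with 21 of 24 positive, a median of 0.40 and 0 called, among them Egr3 at 1.11, 1.96 and 1.62 CPM at baseline and 5.04, 2.54 and 10.3 CPM on Day 5 (adjusted p = 0.182, edgeR).

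Lists of tubular or mitochondrial transcripts took different signs with and without A-ADR1. Proximal tubule markers had 22 of 28 positive and a median of 0.16 with it, and 4 of 28 and -0.37 without it. Distal nephron and collecting duct markers went from 20 of 23 positive (median 0.46) to 9 of 23 (median -0.07). Nuclear genes of oxidative phosphorylation were positive in 27 of 27 (median 0.25) and then in 3 of 27 (median -0.13). Targets of the antioxidant factor Nrf2 went from 29 of 35 positive to 11 of 35. No gene of these 4 lists was called by edgeR in either fit, and no direction is drawn from them.

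**Figure D4:**
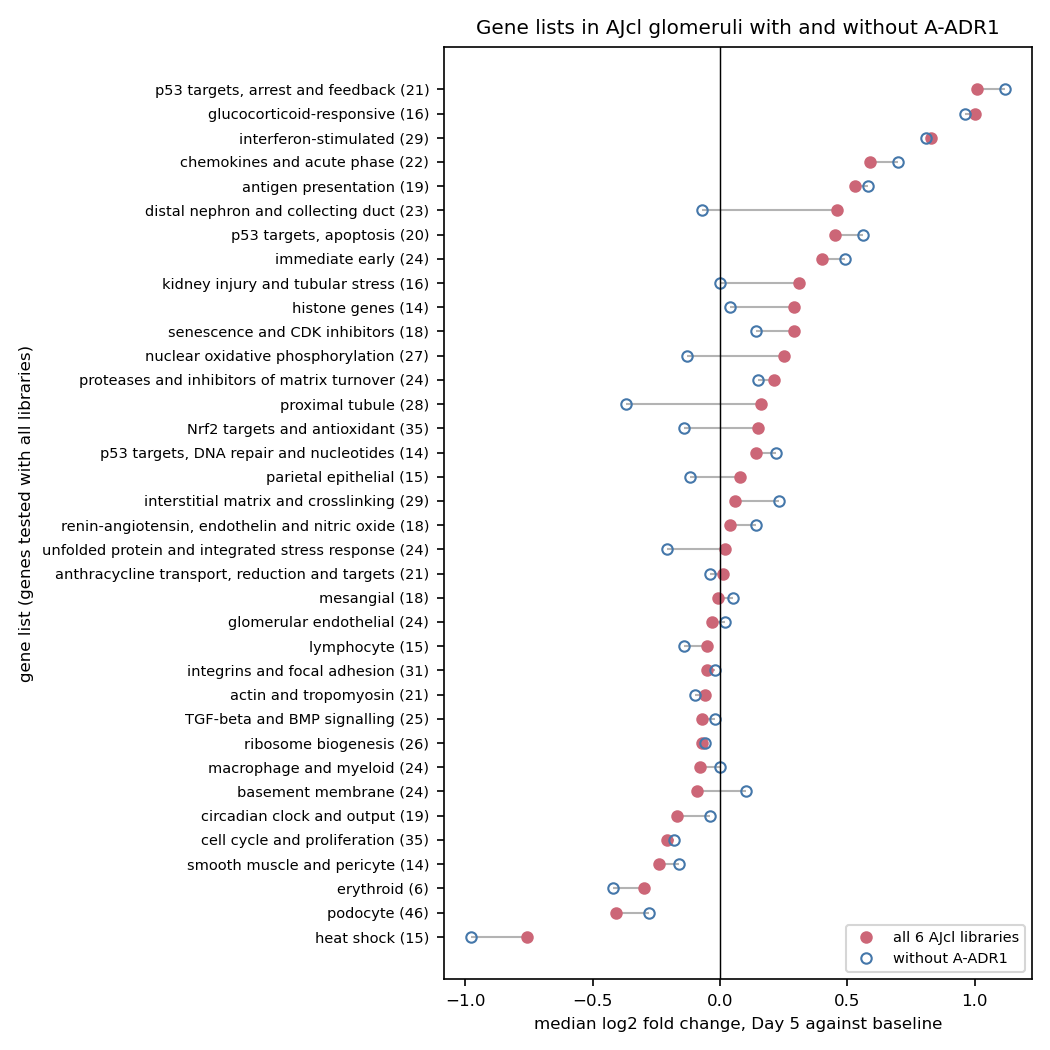
Median log2FC of Day 5 against baseline (horizontal axis) for the 36 gene lists (rows, with the number of genes tested), over all 6 AJcl libraries (filled red) and without A-ADR1 (open blue). The arrest genes of p53, the glucocorticoid-responsive genes and the interferon-stimulated genes lie to the right under both, heat shock and podocyte genes to the left, and 10 lists take the other sign without A-ADR1, among them the tubular, oxidative phosphorylation, Nrf2, parietal, unfolded protein and basement membrane lists.

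The remaining lists held no edgeR call in either direction with the 12 libraries, and most had medians near that of all genes. Mesangial, parietal epithelial and smooth muscle markers had medians of -0.01, 0.08 and -0.24. Genes of growth factor signalling through transforming growth factor beta, matrix proteases, the actin cytoskeleton, the unfolded protein response, the circadian clock, ribosome biogenesis, histones, anthracycline transport and targets, renin and endothelin, and kidney injury had medians between -0.17 and 0.31. Without A-ADR1 the kidney injury median went from 0.31 to 0.00, that of histones from 0.29 to 0.04, that of the unfolded protein response from 0.02 to -0.21 and that of parietal markers from 0.08 to -0.12. Rrm1, the large ribonucleotide reductase subunit in the cell cycle list, was not called by edgeR with the 12 libraries (adjusted p = 0.0624) but was without A-ADR1 (log2FC 0.80, adjusted p = 0.0414, edgeR), and DESeq2 called it with the 12 libraries (adjusted p = 6.13e-04). Havcr1, the tubular injury marker KIM-1, had a log2FC of 0.38 and was not called.

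The 54 AJcl calls had the same sign in ByJcl, a comparison that covers those genes alone. In the same fit edgeR called 4.41% of genes higher and 2.79% lower in ByJcl, 733 and 464 genes. Of the 47 AJcl higher calls 45 were also called higher in ByJcl, which is 95.7% of the AJcl list and 6.14% of the ByJcl list, and the other two, Ttll9 and Fgfbp1, had positive ByJcl log2FC of 0.91 and 0.48. Of the 7 lower calls 6 were also called lower in ByJcl, Chrm3 being the exception (ByJcl log2FC -0.44, adjusted p = 0.400, edgeR). The substrains have separate baseline libraries. Podocyte genes had a ByJcl median of -0.91 with 24 of 46 called lower by edgeR, where 2.79% of all genes were. The AJcl median was -0.41 with 0 called lower, where 0.0421% of all genes were. The difference between the substrains was not tested for this list.

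The test of the difference between the responses, the interaction term of the edgeR fit, called 0 genes with the 12 libraries (801 at an unadjusted p below 0.05, smallest adjusted p 0.748) and 0 without A-ADR1 (1363 at an unadjusted p below 0.05), whereas DESeq2 called 7 with the 12 libraries and 22 without A-ADR1. Among the AJcl calls, 10 had an unadjusted interaction p below 0.05. The AJcl minus ByJcl difference in log2FC was -2.29 for Psrc1 (SE 0.48), -1.65 for Tnfrsf12a (SE 0.47) and -1.29 for Cdkn1a (SE 0.38), so the AJcl point estimate was the smaller for each. It was 1.85 for Ttll9, a tubulin-modifying enzyme, 1.05 for Angptl4 and 0.74 for Top1mt. Of these 6 genes Psrc1 was the only one DESeq2 called (adjusted p = 0.0238).

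**Figure D5:**
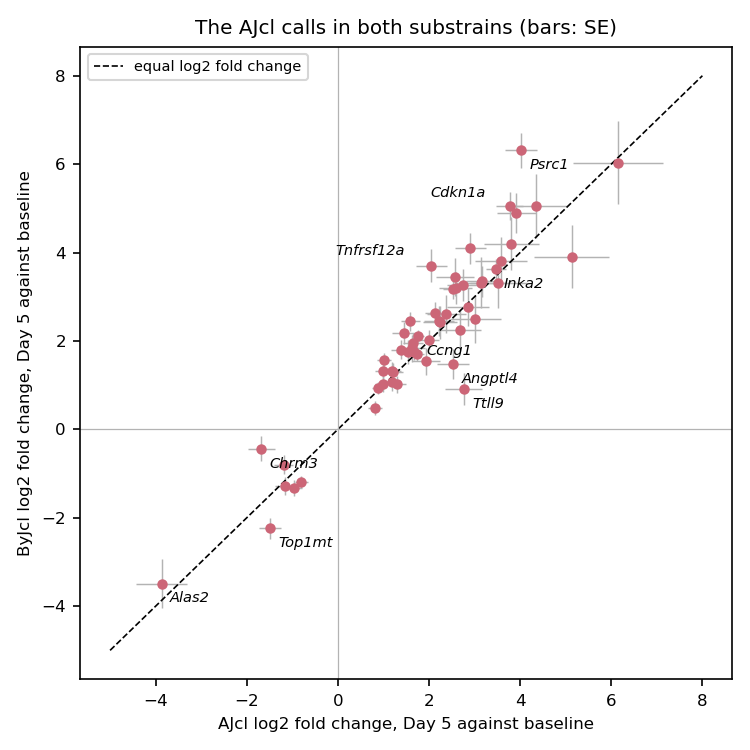
ByJcl log2FC (vertical axis) against AJcl log2FC (horizontal axis), Day 5 against baseline, for the 54 AJcl calls, with bars of 1 SE and a dashed line of equal change. All 47 higher calls lie above 0 in both substrains and all 7 lower calls below 0, with Psrc1, Cdkn1a and Tnfrsf12a above the line and Ttll9 and Angptl4 below it.

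How many genes were called depended on single libraries. Leaving out A-Ctrl1, A-Ctrl2, A-Ctrl3 or A-ADR3 left 14, 13, 19 and 22 calls, while leaving out A-ADR2 gave 148, 81 higher and 67 lower. No call changed sign in any of these. In each of the 6 fits with 1 library left out, 13 genes remained called, Inka2, Ccng1, Cdkn1a, Psrc1, Phlda3, Ly6c1, Ly6c2, Cox6b2, Eda2r, Tmem178, Lpar1, Gtse1 and Zfp365.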

How the data were processed

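RNA-seq read counts per gene were deposited as whole numbers by the authors in 2 tables, baseline and Day 5, after FastQC, Trimmomatic, STAR alignment to GRCm39 and featureCounts, per the labels. The annotation and the strand setting were not given in the sources used here. Groups were taken from the labels, and columns were matched to samples by name. Counts of the 12 libraries were fitted together in edgeR 4.0.16 (R 4.3.3) with TMM scaling, filterByExpr and the quasi-likelihood F-test, with 4 groups and 8 residual degrees of freedom, and p-values were adjusted by Benjamini-Hochberg over 16612 genes, with 0.05 as threshold. The AJcl contrast was Day 5 minus baseline, and the interaction was the AJcl minus the ByJcl contrast. DESeq2 (1.42.0) without A-ADR1, after the study's choice of test and libraries but with another version and gene filter, was an alternative, as were other scalings, filters, single libraries left out and a replicate block. The marker ratio was tested by an exact permutation test in SciPy 1.17.1. Fits were tested on simulated data. Gene coordinates are those of the GENCODE annotation of GRCm39, and promoters are from RefSeq GRCm38.p6. Named genes were the 10 smallest adjusted p and 5 largest log2FC per direction among calls not overlapping between groups, 3 leading members and the highest member of each list, genes the study examined and the 3 leading interaction values per direction. The other genes named, and the p53 response element rule, were chosen after their values were seen. The members and lists were chosen with earlier results of these data known. Results for a few genes are not reported here.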

Additional observations from a re-analysis of the deposited data

How the results depend on the processing

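The number of AJcl calls (54, 47 higher and 7 lower) depended on the libraries and the test, and none of the 54 changed sign in any alternative. Leaving out 1 AJcl library at a time gave between 13 and 148 calls, between 13 and 81 higher and between 0 and 67 lower, and gave between 0 and 2 calls for the interaction, the 2 (Col5a3 and Trabd2b) coming without A-ADR3. DESeq2 gave 326 calls (245 higher, 81 lower), and 301 over 11 libraries without A-ADR1 (245 higher, 56 lower). Its interaction calls numbered 7 and 22. Fitting the 6 AJcl libraries alone, with fewer residual degrees of freedom, gave 18 (16 higher, 2 lower). Without the filter on low counts 11 genes were called lower. RLE size factors, total counts without TMM, a filter at 1 CPM in 3 libraries and halved counts gave between 55 and 61 calls and kept at least 53 of the 54. Total counts moved the median of all genes by 0.03. In every alternative 11 genes stayed called, Ccng1, Cdkn1a, Eda2r, Gtse1, Inka2, Lpar1, Ly6c1, Ly6c2, Phlda3, Psrc1 and Tmem178. The cause was not tested.

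With the replicate block the fit gave 26 calls (23 higher, 3 lower), 23 of them shared with the 54. Same-numbered libraries had correlated deviations of 0.533, 0.485 and -0.297, and not every library correlated best with its own number, so the numbers were not taken as a pairing.

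The difference in log2 podocyte to tubule ratio ranged from -1.24 to -0.18 with 1 library left out, and was -0.87 with 7 podocyte genes and -0.64 with the proximal tubule list. Without A-ADR1, 9 of 36 list medians moved by more than the spread between libraries (parietal, p53 DNA repair, transforming growth factor beta, unfolded protein, clock, histone, senescence, renin and endothelin, and kidney injury). With at most 2 or at most 1 mismatches, alternatives chosen after seeing the data, 3 and 2 of the 34 higher calls held the p53 response element, against 0.369% and 0.0616% of all tested genes. With 3 libraries a group, a gene at the floor of 3 counts cannot be compared.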
